A study of Mus musculus with 15 samples.

Results

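The genes described here encode enzymes of the neutrophil's azurophil granule and the proteins that switch its proteases on and off. They are Mpo, Elane, Prtn3, Ctsg, Ctsc and Serpinb1a, taken by gene symbol, so that every probe of the array annotated to 1 of these symbols counted as a member. The 6 genes were covered by 10 probes, 3 each for Mpo and Ctsc and 1 each for the others, out of 16316 probes and 11075 genes tested. All 10 probes passed the filter on low signals.

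RNA was compared on 15 Illumina Mouse Ref-8 v2 bead arrays between 3 kinds of neutrophils from BALB/c mice, all labelled as Ly6G+. TAN (4 arrays) were neutrophils sorted from flank tumors grown from AB12, a mouse mesothelioma cell line. G-MDSC (4 arrays) were the granulocytic myeloid-derived suppressor cells sorted from the spleens of mice bearing such tumors. NN (7 arrays) were neutrophils from the bone marrow of naïve mice, which carried no tumor. By the study's methods each array held RNA pooled from a few mice, the tumors used for TAN were smaller and younger than those of the mice whose spleens were taken, and tumors and spleens, but not marrow, were digested with enzymes. The labels give CD11b beads and a Ly6G sort for all groups, whereas the methods give this sort for tumors and spleens and a Percoll density gradient for marrow, so how NN were purified is not settled. Organ, tumor and preparation therefore differ together with the group and cannot be told apart. The methods call the pools of a group independent, and the p-values measure the spread between these arrays.

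Signals are given as log2 of the background-corrected, quantile-normalized intensity, with the group mean ± SD, and a difference was called where the adjusted p of the limma fit over all 16316 probes was under 0.05. Between 12560 and 14228 probes per array lay above background. The 8 neutrophil marker genes measured were above background on every array, while Ly6g, the gene of the sorting marker, was not analysed here. Against NN, 5 of the 8 were called lower and 1 higher in TAN, and 3 lower and 3 higher in G-MDSC. Over all genes 26.2% were lower and 36.8% higher in TAN, and 19.7% lower and 18.3% higher in G-MDSC. Their mean log2 signal was 13.5 to 13.83 in TAN, 14.14 to 14.49 in G-MDSC and 14.28 to 14.52 in NN. Itgam, the gene of CD11b, had the largest fall in TAN (-2.61, limma adjusted p = 1.6e-06). Raw background was at a high level (medians of 105 to 114) in all G-MDSC and in NN 6 and NN 7, and at a low level (76.2 to 94.3) in all TAN and in NN 1 to NN 5, so no background level held both TAN and G-MDSC. In TAN 1, TAN 2 and TAN 4, 17.5% to 22.6% of the 2956 genes with several probes had probes more than 4-fold apart in their difference to NN, against 5.48% in TAN 3, and 1.32% to 2.47% in G-MDSC. TAN 3 also stood apart in its macrophage and monocyte markers, with a mean log2 signal of 13.23 over 8 genes against 11.06 to 12.03 on the other TAN arrays. The 8 genes did not share this gap equally. Over the TAN arrays the SD was 2.41 for C1qa and 2.35 for C1qc, but 0.13 for Adgre1 and 0.11 for Trem2. Whether TAN 3 held more of these cells was not tested. G-MDSC 1 stood apart in its B cell markers, with a mean of 10.11 over 5 genes against 7.21 to 7.34 on the other G-MDSC arrays. Results that rest on TAN 3 or G-MDSC 1 are given with and without them.

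Azurophil granules are the first granules a neutrophil precursor makes, at the promyelocyte stage in the marrow, and the genes of their contents are then shut down as the cell matures, while the stored proteins persist. Myeloperoxidase turns hydrogen peroxide and chloride into hypochlorous acid. Neutrophil elastase, proteinase 3 and cathepsin G are serine proteases that are made as inactive precursors, and cathepsin C, a dipeptidyl peptidase, removes their short leading peptide to activate them. Serpinb1a is a cytosolic serpin that traps these proteases when they leak from the granules. The arrays read the transcripts of these genes and not the enzymes in store.

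The promoters are shown because Mpo, Elane, Prtn3 and Ctsg differed between groups in the same direction and Ctsc in the opposite one. RefSeq windows of GRCm38.p6, from 250 bases before to 50 bases after the start, were on hand for 5 of the 6 genes. They are chr11:87793534-87793833 on the plus strand, chr10:79886062-79886361 plus, chr10:79879417-79879716 plus, chr14:56102525-56102824 minus and chr7:88277835-88278134 plus. Capitals mark matches, on either strand, to AACNG (MYB), GAGGAA (PU.1), TTGCNNAA (C/EBP), TGTGGT (RUNX) and TATAA (TATA box), and no match overlapped another.
Elane promoter: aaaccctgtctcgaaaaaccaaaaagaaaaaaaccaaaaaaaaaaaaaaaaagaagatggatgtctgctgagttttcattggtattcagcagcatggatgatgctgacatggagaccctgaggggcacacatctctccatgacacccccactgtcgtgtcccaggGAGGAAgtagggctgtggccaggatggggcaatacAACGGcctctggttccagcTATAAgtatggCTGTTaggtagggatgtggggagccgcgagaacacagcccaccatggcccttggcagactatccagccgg
Prtn3 promoter: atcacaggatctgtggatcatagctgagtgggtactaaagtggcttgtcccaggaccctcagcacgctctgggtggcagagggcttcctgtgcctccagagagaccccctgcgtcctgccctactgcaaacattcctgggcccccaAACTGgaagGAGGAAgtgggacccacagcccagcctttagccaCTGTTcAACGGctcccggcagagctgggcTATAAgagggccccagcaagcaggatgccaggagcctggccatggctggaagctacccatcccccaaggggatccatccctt
Mpo promoter: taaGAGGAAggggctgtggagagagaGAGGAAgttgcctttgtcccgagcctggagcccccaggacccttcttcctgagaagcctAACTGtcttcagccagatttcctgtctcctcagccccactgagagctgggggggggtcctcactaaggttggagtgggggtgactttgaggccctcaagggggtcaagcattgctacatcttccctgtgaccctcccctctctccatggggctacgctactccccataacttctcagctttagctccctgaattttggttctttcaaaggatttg
Ctsg promoter: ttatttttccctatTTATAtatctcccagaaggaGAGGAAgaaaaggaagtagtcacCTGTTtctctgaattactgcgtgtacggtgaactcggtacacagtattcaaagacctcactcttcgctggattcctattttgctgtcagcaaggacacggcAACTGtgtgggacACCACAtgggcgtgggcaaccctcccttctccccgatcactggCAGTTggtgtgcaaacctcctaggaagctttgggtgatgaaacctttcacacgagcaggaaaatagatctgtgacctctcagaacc
Ctsc promoter: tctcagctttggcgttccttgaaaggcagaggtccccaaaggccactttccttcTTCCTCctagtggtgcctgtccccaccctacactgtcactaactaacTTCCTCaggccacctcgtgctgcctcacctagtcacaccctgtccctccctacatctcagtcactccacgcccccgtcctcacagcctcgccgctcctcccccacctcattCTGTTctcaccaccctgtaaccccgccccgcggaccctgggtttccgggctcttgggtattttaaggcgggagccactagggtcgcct
All 5 windows held a match to AACNG and to GAGGAA, and so did 80.3% and 28.3% of the 32851 mouse promoters in the table. Elane and Prtn3, which are next to each other on chromosome 10, shared an order of letters. Each had GAGGAA (starting at base 166 of the Elane window and base 156 of the Prtn3 window), then AACGG (base 201 and base 196), then TATAA on the gene's own strand (base 220 and base 219). TATAA on either strand was in 24.9% of all promoters. The Ctsc window had GAGGAA only on the opposite strand, as TTCCTC. A match to TGTGGT was found only in the Ctsg window (16.8% of all promoters), and one to TTGCNNAA in none of the 5 (10.8% of all promoters). These matches describe the letters and were not tested for binding.

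Mpo transcripts were abundant in NN and close to background in TAN. The brightest of its 3 probes read 7.28, 7.34, 7.07 and 6.91 in the TAN arrays, 8.89, 7.36, 7.73 and 7.76 in the G-MDSC arrays, and 12.10 to 13.27 with a median of 12.58 in the NN arrays. The groups did not overlap, and every TAN array lay below every G-MDSC array. In raw intensity the same probe gave 136 to 149 in TAN, 230 to 613 in G-MDSC and 3190 to 8220 in NN. Mpo was 43-fold lower in TAN than in NN (log2 difference -5.43 ± 0.27 SE, limma adjusted p = 9.3e-11) and 25-fold lower in G-MDSC than in NN (-4.64 ± 0.27, limma adjusted p = 1.6e-09). Among the falls of all 16316 probes it ranked 35 in TAN and 20 in G-MDSC. The second probe was not above background on any TAN array, so its fall to 6.25 ± 0.13 in TAN, against 10.64 ± 0.49 in NN, is a bound of at least 17.3-fold lower (limma adjusted p = 6.3e-11). The third probe, above background on 1 of 4 TAN arrays, fell by 2.95 in TAN and fell by 2.74 in G-MDSC on the log2 scale, each against NN. The 3 probes thus gave 1 direction with different sizes.

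The 3 serine proteases followed the same pattern. Elane, the elastase gene, read 6.82, 6.67, 6.99 and 6.55 in TAN, 7.98, 6.89, 7.28 and 7.43 in G-MDSC, and 10.98 to 12.52 with a median of 11.57 in NN. It was 28.6-fold lower in TAN than in NN (-4.84 ± 0.24 SE, limma adjusted p = 9.5e-11) and 18.4-fold lower in G-MDSC than in NN (-4.20 ± 0.24, limma adjusted p = 1.4e-09). Prtn3, the proteinase 3 gene, stayed above background on all 15 arrays. It read 8.19, 8.11, 7.96 and 8.05 in TAN, 9.21, 8.37, 8.32 and 8.67 in G-MDSC, and 10.72 to 12.63 with a median of 11.46 in NN. Its differences to NN of -3.52 in TAN (11.5-fold lower, limma adjusted p = 1.3e-08) and -2.95 in G-MDSC (7.75-fold lower, limma adjusted p = 2.6e-07) were the smallest of the peroxidase and protease genes by their brightest probes. Ctsg, the cathepsin G gene, read 6.12, 6.33, 6.52 and 6.14 in TAN, 7.27, 6.50, 6.61 and 6.33 in G-MDSC, and 10.08 to 11.13 with a median of 10.58 in NN. Only 1 of 4 TAN arrays and 3 of 4 G-MDSC arrays had Ctsg above background, against 7 of 7 NN arrays. Ctsg was lower in TAN than in NN (measured difference -4.23, limma adjusted p = 1.1e-10) and lower in G-MDSC than in NN (-3.83, limma adjusted p = 1.1e-09). The size of these folds rests on signals at background. With readings below background raised to the lowest signal counted as above it, an alternative chosen after the data were seen, Ctsg was 15.7-fold lower in TAN and 13.8-fold lower in G-MDSC, each against NN. After plain subtraction of the background the Ctsg differences were -8.7 in TAN and -6.02 in G-MDSC, in the same direction and still called.

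Ctsc, the activator of these proteases, went the other way. Its brightest probe read 9.45, 9.47, 9.48 and 9.15 in TAN, 7.09, 7.12, 7.02 and 7.55 in G-MDSC, and 6.43 to 6.54 with a median of 6.50 in NN. The groups did not overlap, and NN sat at the edge of background, above it on 5 of 7 arrays. Ctsc was 7.46-fold higher in TAN than in NN (2.90 ± 0.10 SE, limma adjusted p = 1.7e-12), 1.63-fold higher in G-MDSC than in NN (0.71 ± 0.10, limma adjusted p = 4.0e-05) and 4.57-fold higher in TAN than in G-MDSC (2.19 ± 0.11, limma adjusted p = 9.1e-10). Its other probes rose by 2.14 and 1.44 in TAN against NN and by 0.46 and 0.39 in G-MDSC against NN. The 2 smaller rises in G-MDSC were not called within the arrays of high background (0.25 and 0.38, limma adjusted p = 0.302 and 0.161). After plain subtraction of the background the rises of the brightest probe were 5.24 in TAN and 2.17 in G-MDSC, both called.

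Serpinb1a, the inhibitor, fell in both groups, and G-MDSC lay between TAN and NN. Its close relatives Serpinb1b and Serpinb1c were not analysed here. It read 6.69, 6.56, 7.43 and 6.71 in TAN, 10.28, 9.82, 9.68 and 10.04 in G-MDSC, and 12.52 to 12.88 with a median of 12.71 in NN. The TAN arrays were just above background, the G-MDSC arrays in between and the NN arrays within 0.36 of each other on the log2 scale. Serpinb1a was 56.8-fold lower in TAN than in NN (-5.83 ± 0.15 SE, limma adjusted p = 6.3e-14), 6.59-fold lower in G-MDSC than in NN (-2.72 ± 0.15, limma adjusted p = 1.1e-09) and 8.61-fold lower in TAN than in G-MDSC (-3.11 ± 0.17, limma adjusted p = 1.6e-09). Its measured fall in TAN was larger than those of Mpo, Elane, Prtn3 and Ctsg. But after plain subtraction of the background it was -7.46, against -8.7 for Ctsg and -6.5, -8.91 and -6.24 for Mpo probes 1, 2 and 3. In TAN 3, its highest TAN array, the difference of Serpinb1a to the NN mean was -5.25.

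**Figure D1:**
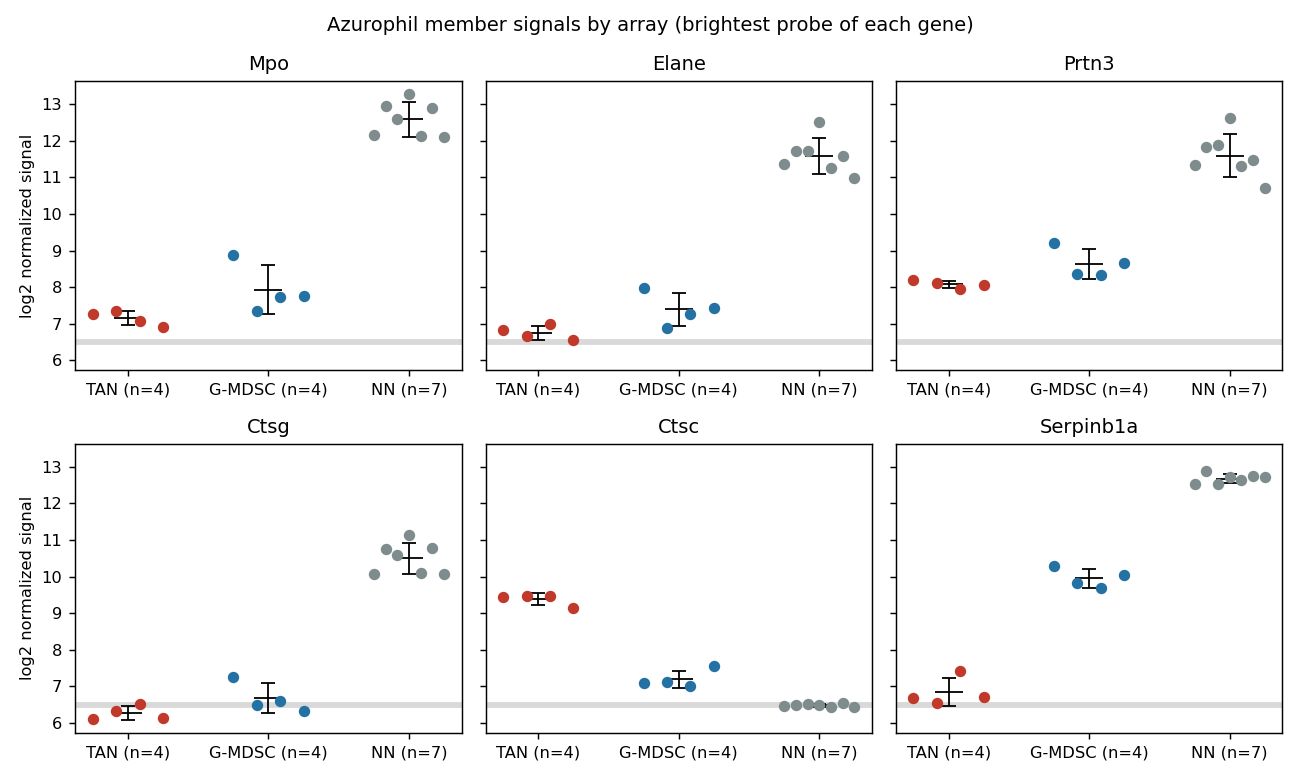
Log2 normalized signal of the brightest probe of each gene on every array, with points for single arrays (TAN, G-MDSC, NN), a black bar for the group mean and whiskers for 1 SD. The grey band spans 6.45 to 6.55, the lowest normalized signals that counted as above background on the arrays. Mpo, Elane, Prtn3 and Ctsg separate TAN and G-MDSC from NN, Ctsc is highest in TAN, and Serpinb1a has a level of its own in each group.

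Against NN, all 6 genes were called in both comparisons, with 1 higher and 5 lower in TAN and 1 higher and 5 lower in G-MDSC. All 6 were still called without TAN 3 and without G-MDSC 1. They were also called with TAN 3 as the only TAN array, where that array is assumed to vary like those of the other groups, so this says nothing about the spread in TAN. Of all genes tested, 63.0% were called between TAN and NN (26.2% lower) and 38.0% between G-MDSC and NN (19.7% lower), so a call by itself was common. A called fall of at least 16-fold was seen for 0.766% of probes in TAN and 0.184% in G-MDSC, and it was reached in TAN by Mpo (its first 2 probes), Elane and Serpinb1a and in G-MDSC by Mpo and Elane. Ctsg in TAN passed this mark only by readings below background. Counted by probe, the arrays of TAN and NN did not overlap for any of the 10, with 7 lower and 3 higher, as for 21.3% and 22.1% of all probes, and those of G-MDSC and NN did not overlap for 7 lower and 2 higher probes, as for 16.2% and 15.8% of all probes. Within the arrays of 1 background level the values were close to these. Within the low level, TAN minus NN was -5.46 for Mpo, -4.96 for Elane, -3.72 for Prtn3, -4.25 for Ctsg, 2.90 for Ctsc and -5.81 for Serpinb1a, and within the high level, G-MDSC minus NN was -4.55 for Mpo, -3.88 for Elane, -2.45 for Prtn3, -3.76 for Ctsg, 0.70 for Ctsc and -2.78 for Serpinb1a, all still called.

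Between TAN and G-MDSC, Ctsc was higher and Serpinb1a lower in TAN, while the calls of the other 4 genes moved with the processing. Of the 6 genes, 1 was higher, 2 were lower and 3 were not called, against 59.0% of all genes called (36.4% higher and 22.6% lower). Mpo was 1.72-fold lower in TAN (-0.78 ± 0.31 SE, limma adjusted p = 0.0373). That call was lost without G-MDSC 1, its highest G-MDSC array (-0.47, limma adjusted p = 0.132), without TAN 1 (-0.83, 0.0511), TAN 3 (-0.76, 0.0514) or TAN 4 (-0.70, 0.0913), and without both TAN 3 and G-MDSC 1 (-0.44, limma adjusted p = 0.144). Elane differed by -0.64 (95% interval -1.22 to -0.06, limma adjusted p = 0.0557), Prtn3 by -0.56 (-1.20 to 0.08, limma adjusted p = 0.119) and Ctsg by -0.40 (-0.91 to 0.12, limma adjusted p = 0.168). Plain subtraction of the background gave larger differences, which were called for Mpo (-1.29, limma adjusted p = 0.0171), Elane (-1.44, limma adjusted p = 0.0107) and Ctsg (-2.68, limma adjusted p = 0.0183) and not for Prtn3 (-0.72, limma adjusted p = 0.0927). With readings below background raised, the Ctsg difference was -0.18 (limma adjusted p = 0.536). Prtn3 was called with the level of background as a block (-1.27, limma adjusted p = 0.0305). As no level held both groups, that value compares TAN and G-MDSC only through the NN arrays, with NN 6 and NN 7 alone at the high level. Prtn3 was lower on every TAN array than on every G-MDSC array, while the Elane and Ctsg readings of the groups overlapped. Of the 10 probes, 4 were lower and 3 higher with no overlap between TAN and G-MDSC, as were 19.3% and 24.4% of all probes.

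**Figure D2:**
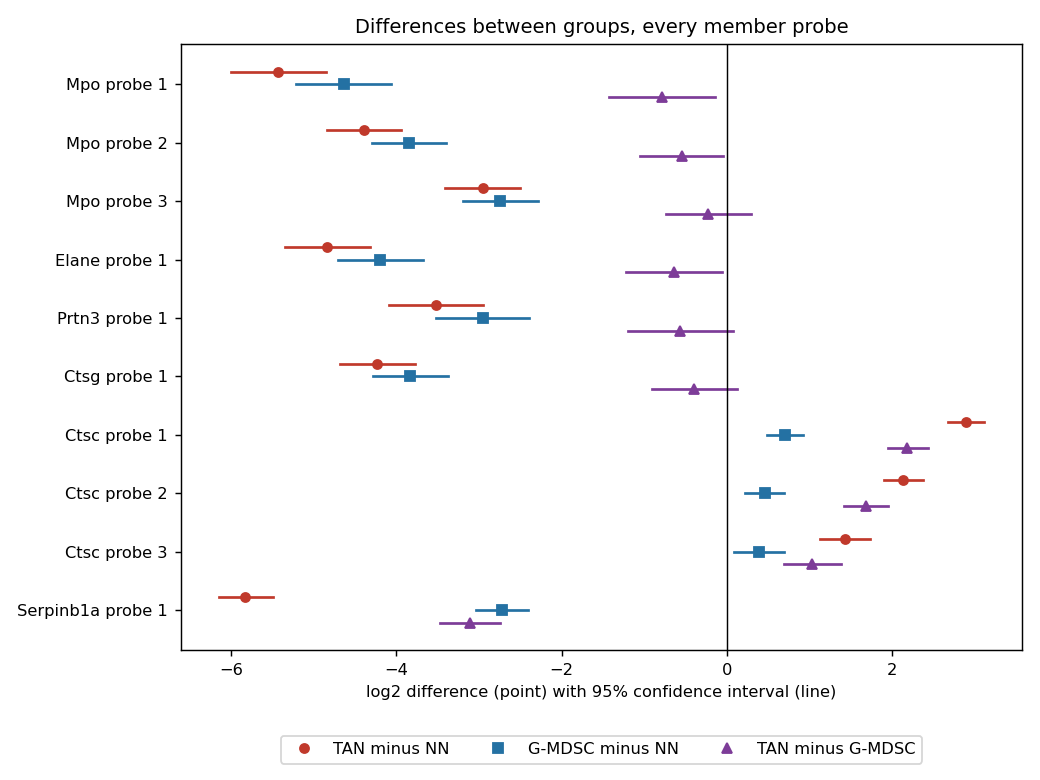
Log2 difference (x axis) of each of the 10 member probes for TAN minus NN, G-MDSC minus NN and TAN minus G-MDSC, as points with 95% confidence intervals of the limma fit as lines. The Mpo, Elane, Prtn3 and Ctsg intervals lie far below 0 against NN and near 0 between TAN and G-MDSC, whereas those of Ctsc lie above 0 and those of Serpinb1a below 0 in all 3 comparisons.

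The arrays of a group also differed among themselves, and in NN and G-MDSC a single array was high for most of the peroxidase and protease genes. In NN, array NN 4 was the highest for all 6 probes of Mpo, Elane, Prtn3 and Ctsg, by 0.73 (Ctsg) to 1.21 (Prtn3) above the mean of the other NN arrays. NN 7 was the lowest for 4 of these probes and NN 1 for the other 2. Serpinb1a and the brightest Ctsc probe did not share this, since NN 4 was only 0.07 and 0.01 above the other NN arrays. The spread within NN was accordingly wider for Prtn3 (SD 0.60) and Elane (SD 0.49) than for Serpinb1a (SD 0.13). In G-MDSC, array G-MDSC 1 was the highest for 5 of the 6 probes, by 1.27 for the brightest Mpo probe and by 0.76 for Prtn3. G-MDSC 1 also had the highest mean of the G-MDSC arrays for T and NK cell markers (9.37, others 7.43 to 7.47), as it had for B cell markers. The same held for promyelocyte and progenitor markers (8.04, others 7.42 to 7.68), dividing cell markers (7.78, others 7.18 to 7.53), eosinophil markers (7.63, others 6.70 to 6.87) and mast cell and basophil markers (8.19, others 7.44 to 7.62). The promyelocyte list and the T and NK list share Nkg7, so their means are not separate. Nkg7 had an SD of 1.63 over the G-MDSC arrays, against at most 0.38 for the other promyelocyte and progenitor markers. The part of these cells in its readings was not tested. In TAN, array TAN 3 was the highest for 4 of the 6 probes and TAN 4 the lowest for 4. By the brightest probes TAN 3 was the highest for Elane (0.23 above the TAN mean) and Ctsg (0.25 above it). It was the lowest for Prtn3 (-0.12), and TAN 2 was the highest for Mpo (0.19 above the TAN mean). Ctsg lay below background on 3 of the 4 TAN arrays, so whether the genes moved together in TAN cannot be settled. Serpinb1a was 0.77 higher in TAN 3 than the mean of the other TAN arrays.

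**Figure D3:**
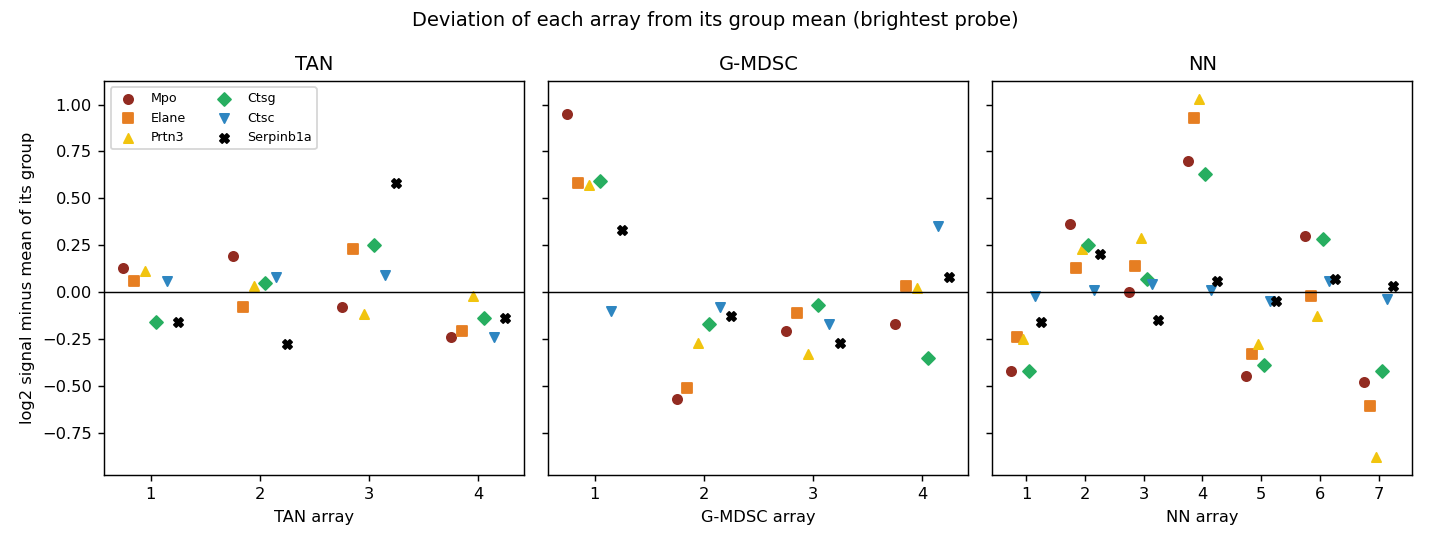
Log2 signal of the brightest probe of each gene minus the mean of its group (y axis) for each array (x axis) of TAN, G-MDSC and NN. In NN 4 and G-MDSC 1 the points of Mpo, Elane, Prtn3 and Ctsg lie above 0 together, and in NN 7 they lie below 0, while Ctsc and Serpinb1a vary less in NN.

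Since the peroxidase, the proteases and Serpinb1a all fell, the log2 signal of each enzyme was set against that of Serpinb1a on the same array. Mpo does not encode one of the proteases that Serpinb1a traps, so its value only compares the sizes of the falls. Only the difference of such a value between groups is informative, because different probes have different brightness. In TAN, Serpinb1a (6.56 to 7.43), Elane (6.55 to 6.99) and Mpo (6.91 to 7.34) read above background but close to it. The sizes of all shifts that involve TAN are therefore uncertain. Where both readings of a pair lie near background, their difference is drawn toward 0 whatever the size of either fall. For Elane it was -0.09 in TAN and -1.08 in NN, so its shift is about the NN value with the sign turned. For Mpo, Elane and Ctsg the direction and p of the shifts that involve TAN are therefore uncertain too. Prtn3 and Serpinb1a had 1 probe each. On TAN 1, TAN 2 and TAN 4, 17.5% to 22.6% of the genes with several probes had probes more than 4-fold apart. The part of such probe differences in the shifts was not tested. For Prtn3 the value relative to Serpinb1a was 1.23 ± 0.47 in TAN, -1.31 ± 0.16 in G-MDSC and -1.08 ± 0.59 in NN (SD). On TAN 3, where the share of such genes was 5.48%, it was 0.54, against 1.34 to 1.54 on the other TAN arrays. Prtn3 was thus 2.31 higher relative to Serpinb1a in TAN than in NN (exact two-sided permutation test, p = 0.00606, adjusted over 12 tests p = 0.0145), where 0.00606 is the smallest p that 4 arrays against 7 allow, whereas G-MDSC differed from NN by -0.23 (exact permutation p = 0.461, adjusted p = 0.461). For Mpo the shift was 0.40 in TAN against NN (exact permutation p = 0.164, adjusted p = 0.179) and -1.92 in G-MDSC against NN (exact permutation p = 0.00606, adjusted p = 0.0145). For Elane it was 0.99 in TAN (exact permutation p = 0.0121, adjusted p = 0.0242) and -1.48 in G-MDSC (exact permutation p = 0.00606, adjusted p = 0.0145), each against NN, and the TAN call was lost without TAN 1 (0.92), TAN 2 (0.92) or TAN 4 (1.02), with an exact permutation adjusted p of 0.0667 in each case, and after plain background subtraction (0.93, exact permutation, adjusted p = 0.0727). For Ctsg, which lay below background on 3 of the 4 TAN arrays, the size of the shift in TAN has no firm value. It was 1.60 in TAN and -1.11 in G-MDSC, each against NN (exact permutation p = 0.00606, adjusted p = 0.0145 for each), and 1.86 in TAN with readings below background raised. With plain background subtraction, tried after the data were seen, it became -1.24 in TAN (exact permutation, adjusted p = 0.179). Between TAN and G-MDSC Mpo, Elane and Prtn3 were higher relative to Serpinb1a in TAN, by 2.32, 2.47 and 2.54, with no overlap of the arrays. Each had the smallest p that 4 arrays against 4 allow (exact permutation p = 0.0286, adjusted p = 0.0343). Ctsg had the same p with a shift of 2.71, which rests on the TAN readings at background and was 1.96 and not called after plain subtraction (exact permutation, adjusted p = 0.171). None of the 4 genes was called once any 1 of the 8 TAN and G-MDSC arrays was left out, where 3 arrays against 4 cannot pass the adjusted threshold.

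**Figure D4:**
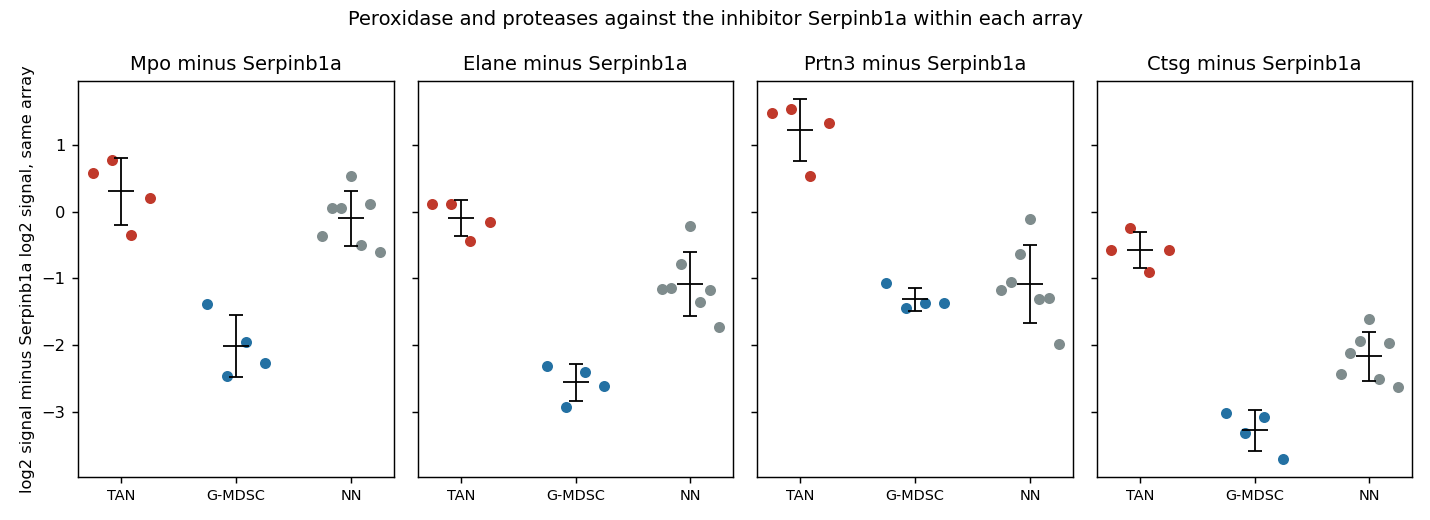
Log2 signal of Mpo, Elane, Prtn3 and Ctsg minus that of Serpinb1a on the same array (y axis) for TAN, G-MDSC and NN, with single arrays as points, the group mean as a black bar and 1 SD as whiskers. The TAN points lie above the G-MDSC points for all 4 genes, and the Prtn3 points of TAN (0.54 to 1.54) lie above those of NN (-1.99 to -0.11).

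By called genes and median difference, other protease inhibitors did not share the fall of Serpinb1a as a group, but their summed signal was lower in TAN. Of 17 further genes listed as serine protease inhibitors, the clearance receptor Lrp1 among them, 9 were measured, of which 5 were higher and 2 lower in TAN than in NN and 1 was higher and 3 were lower in G-MDSC than in NN. Over all genes tested, 36.8% were higher and 26.2% lower in TAN than in NN, and 18.3% were higher and 19.7% lower in G-MDSC than in NN. The list's median difference was 0.76 in TAN and -0.12 in G-MDSC, against 0.12 and -0.01 over all genes. The largest rise in TAN was that of Wfdc2, a whey acidic protein family member, to 11.22 in TAN against 6.34 in NN. Wfdc2 was not above background on any NN array, so this is a bound of at least 26.9-fold higher in TAN (limma adjusted p = 5.3e-12). In G-MDSC the 1 gene called higher was the receptor Lrp1 (0.58, limma adjusted p = 0.00170), so no inhibitor of the list was called higher there. Slpi, the secretory leukocyte protease inhibitor, which binds elastase and cathepsin G, fell by 1.12 in TAN (limma adjusted p = 6.0e-07) and had a difference of -0.12 in G-MDSC (limma adjusted p = 0.442). It was the brightest gene of the list, at 14.33 in TAN and 15.45 in NN. The summed signal of the 9 genes was 23000 to 31000 in TAN, 35000 to 46800 in G-MDSC and 43300 to 53600 in NN. Serpinb6a, an intracellular serpin that binds cathepsin G, rose by 0.76 in TAN (limma adjusted p = 2.9e-04) and fell by 0.81 in G-MDSC (limma adjusted p = 3.5e-04). Serpinb10 had the largest measured fall in TAN, to 6.08 in TAN against 7.39 in NN, and was not above background there, so it was at least 1.82-fold lower in TAN (limma adjusted p = 1.0e-07).

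The cystatins and stefins, which inhibit cysteine proteases of the cathepsin family, were higher or not called. Of 6 measured out of 9 listed, 4 were higher and 0 lower in TAN, and 4 were higher and 0 lower in G-MDSC, each against NN, where 36.8% and 18.3% of all genes were higher. The list's median difference was 0.40 in TAN and 0.39 in G-MDSC, against 0.12 and -0.01 over all genes. Cstb rose by 2.43 in TAN and by 0.59 in G-MDSC (limma adjusted p = 2.6e-10 and 0.00208), and Stfa2 by 1.55 and 1.82 (2.0e-05 and 8.8e-06). Stfa1 differed by 0.10 in TAN (limma adjusted p = 0.474) and rose by 0.46 in G-MDSC (0.00567). Cst7, whose product cystatin F has cathepsin C among its targets, rose by 0.48 in TAN (limma adjusted p = 0.0204) and differed by -0.12 in G-MDSC (0.620). Among the lysosomal cathepsins other than Ctsc, 7 of 11 were higher and 2 lower in TAN than in NN, and 4 were higher and 3 lower in G-MDSC than in NN, with medians of 0.53 in TAN and 0.09 in G-MDSC. The largest rise in TAN was that of Ctsk (4.78, limma adjusted p = 2.0e-12). Ctsa had the largest measured fall in TAN, to 6.26 in TAN against 8.14 in NN, and was not above background in TAN, so it was at least 3.06-fold lower in TAN than in NN (limma adjusted p = 0.00106). In G-MDSC Ctss rose most (1.80, limma adjusted p = 2.2e-07), and Ctse fell most (-1.09, limma adjusted p = 7.9e-08).

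**Figure D5:**
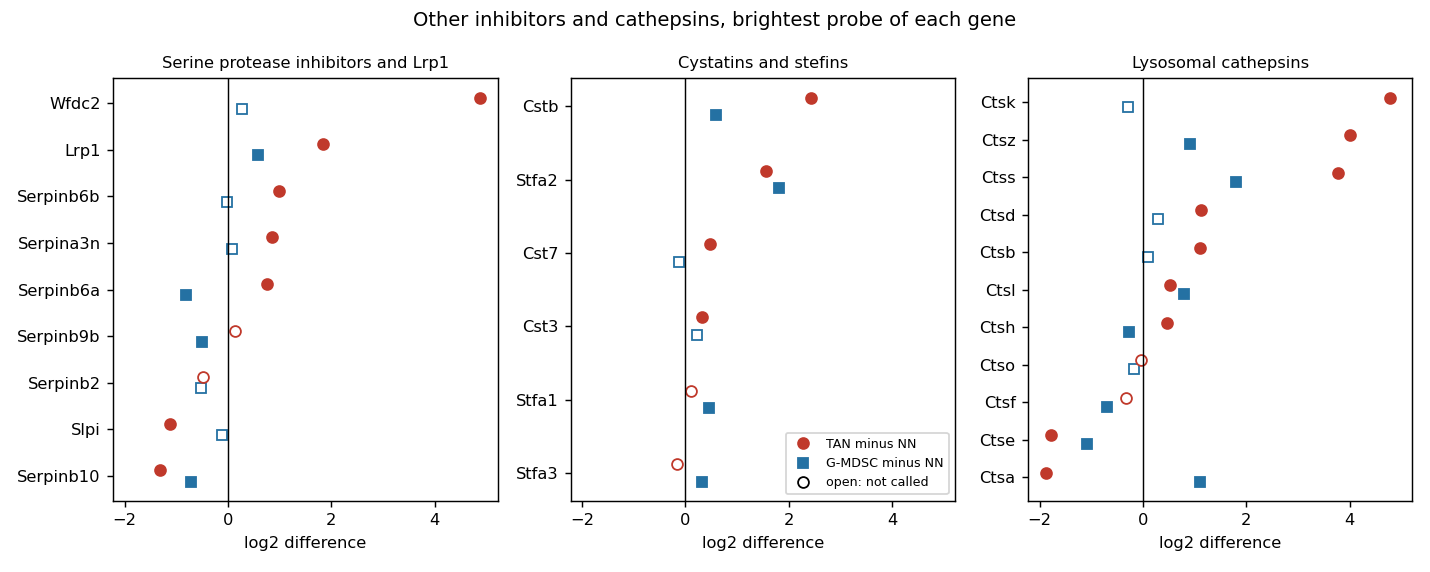
Log2 difference (x axis) for TAN minus NN (circles) and G-MDSC minus NN (squares) of each measured gene (y axis) of 3 lists, with open symbols where the difference was not called. Wfdc2 (4.88) and Ctsk (4.78) lie farthest to the right in TAN, and the largest measured fall of an inhibitor in TAN is the -1.31 of Serpinb10.

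Other contents of the azurophil granule moved in both directions. Of 11 measured out of 15 listed, 5 were higher and 1 lower in TAN, and 3 were higher and 3 lower in G-MDSC, each against NN. Over all genes 36.8% were higher and 26.2% lower in TAN and 18.3% were higher and 19.7% lower in G-MDSC, so the shares of higher genes and those in G-MDSC were near the shares over all genes. The list's median difference was 0.10 in TAN and 0.13 in G-MDSC, against 0.12 and -0.01 over all genes. Srgn, whose proteoglycan serglycin packs the enzymes in the granule, rose by 2.38 in TAN and by 1.96 in G-MDSC (limma adjusted p = 1.5e-08 and 3.6e-07). Lyz2, a lysozyme gene, was the gene with the largest fall, with differences of -1.5 in TAN and -1.43 in G-MDSC (limma adjusted p = 3.7e-09 and 1.8e-08). Several of these genes encode general lysosomal proteins as well. Among 13 measured genes of folding and granule sorting, 4 were higher and 7 lower in TAN and 3 higher and 4 lower in G-MDSC, with median differences of -0.83 in TAN and -0.25 in G-MDSC. Srgn, listed here too, had the largest rises. Ap3b1, a subunit of the adaptor that sorts proteins to lysosome-related granules, had the largest fall in TAN (-1.55, limma adjusted p = 4.0e-05) and differed by -0.25 in G-MDSC (0.446). Cd63, a tetraspanin of the azurophil granule membrane, had the largest fall in G-MDSC (-1.3, limma adjusted p = 4.3e-08) and differed by 0.04 in TAN (0.722). Calr, a chaperone of myeloperoxidase folding, fell by 1.11 in TAN (limma adjusted p = 0.00564) and differed by 0.10 in G-MDSC (0.833). The specific and gelatinase granule genes, which are switched on after the azurophil genes, were lower for 14 of 14 in TAN and for 8 of 14 in G-MDSC, with median differences of -3.99 in TAN and -0.99 in G-MDSC. Ngp, the neutrophilic granule protein gene, had the largest fall in TAN (-7.93 ± 0.65 SE, limma adjusted p = 3.1e-08), where 3 of 4 arrays were above background, and differed by -0.96 in G-MDSC (0.267). In G-MDSC the largest fall was that of Itgb2l, an integrin beta 2-like gene (-3.09, limma adjusted p = 8.4e-11). Ltf, the lactoferrin gene, differed by -3.93 in TAN and by -0.34 in G-MDSC (limma adjusted p = 2.0e-11 and 0.139), and Camp by -5.89 in TAN and -1.33 in G-MDSC (3.7e-13 and 2.2e-05). Mmp8, a collagenase gene, fell by 4.33 in TAN and fell by 2.28 in G-MDSC (limma adjusted p = 1.2e-11 and 5.5e-08).

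Among 15 measured transcription factors known to act on azurophil genes or in granulocyte precursors, 4 were higher and 8 lower in TAN, and 3 were higher and 7 lower in G-MDSC, each against NN. Over all genes 36.8% were higher and 26.2% lower in TAN, and 18.3% higher and 19.7% lower in G-MDSC. The list's median difference was -0.65 in TAN and -0.26 in G-MDSC. Cebpe, needed for the step beyond the promyelocyte, fell most, with differences of -5.13 in TAN and -2.99 in G-MDSC (limma adjusted p = 6.8e-14 and 1.1e-10). Cebpa fell too, by at least 2.15-fold in TAN, where it was not above background, and with a difference of -0.51 in G-MDSC (limma adjusted p = 8.9e-06 and 0.0295), and Gfi1, a repressor that shapes granulocyte fate, with -1.32 and -1.74 (8.0e-05 and 1.1e-05). Klf4 had the largest rises, of 2.60 in TAN and 2.82 in G-MDSC (limma adjusted p = 2.9e-06 and 3.0e-06). Runx1 rose by 0.87 in TAN (limma adjusted p = 3.4e-05) and differed by -0.26 in G-MDSC (0.140). Myb read 6.48 in TAN, 6.39 in G-MDSC and 6.54 in NN, all close to background, and was not called. Of 8 measured promyelocyte and progenitor markers, 3 were lower, 0 higher and 5 not called in TAN, and 2 were lower, 1 higher and 5 not called in G-MDSC, each against NN, which is near the 26.2% and 19.7% of all genes that were lower. The list's median difference was -0.15 in TAN and -0.24 in G-MDSC. Igsf6 was the marker that rose in G-MDSC (0.52, limma adjusted p = 0.00998). Ms4a3, a gene of granulocyte and monocyte progenitors, fell most, with differences of -3.54 in TAN and -2.52 in G-MDSC (limma adjusted p = 9.0e-11 and 1.3e-08).

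The few measured genes next to the members on the chromosome were called in both directions. Over all genes 36.8% were higher and 26.2% lower in TAN, and 18.3% higher and 19.7% lower in G-MDSC, each against NN. Sets of 3 to 7 genes are too small to set against these shares. Of 7 measured neighbours of Elane and Prtn3, 1 was higher and 3 lower in TAN than in NN, and 0 were higher and 2 lower in G-MDSC than in NN. R3hdm4 had the largest fall, to 6.01 in TAN against 9.47 in NN, and was not above background on any TAN array, so it was at least 7.69-fold lower in TAN than in NN (limma adjusted p = 3.7e-09). It fell by 0.71 in G-MDSC (limma adjusted p = 0.0271). Ptbp1, which encodes a splicing repressor, rose by 0.98 in TAN (limma adjusted p = 7.5e-05) and differed by -0.31 in G-MDSC (0.159). Med16, a Mediator subunit gene, differed by -0.25 in TAN (limma adjusted p = 0.0689) and had the largest fall of these neighbours in G-MDSC (-0.83, limma adjusted p = 2.9e-05). Of 5 measured neighbours of Ctsg in the granzyme and mast cell protease cluster, 1 was higher and 1 lower in TAN, and 1 was higher and 2 lower in G-MDSC. Gzmd, a granzyme gene not above background in NN, was at least 1.97-fold higher in TAN and at least 1.25-fold higher in G-MDSC, each against NN (limma adjusted p = 1.9e-07 and 7.1e-04). Mcpt8 was at least 1.23-fold lower in TAN, where it was not above background, and fell by 0.58 in G-MDSC (limma adjusted p = 0.00151 and 0.00361). Of 3 measured neighbours of Mpo, 1 was higher and 1 lower in TAN, and 1 was higher and 2 lower in G-MDSC. Supt4a, a transcription elongation factor gene, rose by 0.67 in TAN and by 0.89 in G-MDSC (limma adjusted p = 5.7e-05 and 6.9e-06). Epx, the eosinophil peroxidase gene, was at least 5.95-fold lower in TAN, where it was not above background, and fell by 2.67 in G-MDSC (limma adjusted p = 6.8e-10 and 3.0e-09). The named genes Prss57, Bpi, Serpinb9, Cfd and Gzmb were not analysed here.

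The genes most alike to each member were taken as those with the smallest root mean square difference, over the 15 arrays, between log2 profiles set to the NN mean. For Mpo these were Elane (0.44), Ear6 (0.46) and Slc38a5 (0.47), and for Elane they were Ctsg (0.42), Slc38a5 (0.43) and Mpo (0.44). Prtn3 was most like Trp53inp2 (0.33), Ms4a3 (0.38) and Ces2g (0.41). Ctsg was most like Kel (0.35), Klf1 (0.36) and Dmtn (0.38), which are genes of red cell precursors. Ctsc was most like Tspan31 (0.11), Npc2 (0.20) and Cmtm3 (0.22), and Serpinb1a was most like Septin5 (0.34), Tmem45a2 (0.40) and Cebpe (0.44). The measure follows the 3 group levels above all, and all arrays share them.

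Markers of several other cells also differed between the groups. Over all genes 36.8% were higher and 26.2% lower in TAN, and 18.3% higher and 19.7% lower in G-MDSC, each against NN. The 5 red blood cell markers measured were all lower in TAN and in G-MDSC than in NN, with mean log2 signals of 7.76 to 8.43 in TAN, 8.33 to 9.15 in G-MDSC and 13.29 to 13.59 in NN. Of 10 dividing cell markers, 7 were lower in TAN and 9 in G-MDSC than in NN (means of 8.07 to 8.27 in TAN, 7.18 to 7.78 in G-MDSC and 9.23 to 9.79 in NN). Between TAN and G-MDSC, 6 of the 10 were higher in TAN, where 36.4% of all genes were higher. Of 6 eosinophil markers, 5 were lower and 1 higher in TAN, and 4 were lower in G-MDSC (6.38 to 6.61 in TAN, 6.70 to 7.63 in G-MDSC and 9.54 to 10.02 in NN). Of 8 macrophage and monocyte markers, 6 were higher in TAN and 1 in G-MDSC (11.06 to 13.23 in TAN, 9.38 to 9.82 in G-MDSC and 9.30 to 10.17 in NN), and all 8 were above background on every array. Of 5 B cell markers, 3 were lower in TAN and 0 in G-MDSC, and of 7 T and NK cell markers 2 and 1. Of 8 mast cell and basophil markers, 4 were lower and 2 higher in TAN, and 5 lower and 1 higher in G-MDSC. The 1 higher in G-MDSC was Hdc, which was also higher in TAN. Hdc read 15.92 in TAN, 15.73 in G-MDSC and 15.1 in NN, while no other marker of this list had a group mean above 8.71. The part of these cells in the differences of the 6 genes was not tested, and fewer cells of a type and less RNA per cell cannot be told apart in such samples. NN 4, the array with the highest protease signals, was the highest NN array for the promyelocyte and progenitor markers (8.56, others 8.28 to 8.47), the macrophage and monocyte markers (10.17, others 9.30 to 9.74) and the T and NK cell markers (8.28, others 7.82 to 8.13), where the first and last of these lists share Nkg7. It was the lowest for the dividing cell markers (9.23, others 9.29 to 9.79) and within the range of the other NN arrays for the red cell (13.54), eosinophil (9.83), B cell (8.44) and mast cell and basophil (8.16) markers.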

How the data were processed

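Total RNA was labelled with biotin and hybridized to 15 Illumina Mouse Ref-8 v2 arrays. The authors deposited an intensity for each of 25697 probes per array, read out with BeadStudio and not normalized, and a table of 16322 probes with intensity values on a linear scale after quantile normalization. No detection p-values were used here. The intensities were corrected with limma 3.58.1 in R 4.3.3 (normexp, offset 50), put on the log2 scale and quantile normalized. Probes of the authors' table with a range of at least 1.2-fold were kept (16316). Background was the 95th percentile, on each array, of the 9375 probes outside that table. Limma was fitted to all 3 groups, with Benjamini-Hochberg adjustment over the kept probes. The limma step was tested on simulated data. A gene of several probes is given by its brightest one. "At least" folds set the bright group's mean against the lowest signal counted as above background. Gene symbols came from the platform annotation, and 995 kept probes had none. Ratios to Serpinb1a were compared with exact permutation tests (SciPy 1.17.1). The members and lists were chosen with earlier results of these data known. Named list genes were a fixed set plus, in each list, the called genes with the largest rise and the largest fall against NN. Replicate numbers did not pair arrays: 4 of 12 same-numbered pairs deviated together with a correlation over 0.1 (range -0.31 to 0.27). Arrays carry no read depth, so their number limits the precision.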

Additional observations from a re-analysis of the deposited data

Results flagged for a closer look

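In 3 of the 30 sets of readings (10 probes in 3 groups) 1 array lay far from the others by Dixon's test, where chance gives about 1 in 20. Ctsc probe 1 read 9.15 in TAN 4, the lowest TAN array, against 9.45 to 9.48 on the other TAN arrays. Ctsc probe 3 read 8.32 in TAN 3, the highest, against 7.67 to 7.75. Mpo probe 3 read 6.65 in TAN 3, the highest, against 6.27 to 6.32.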

How the results depend on the processing

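All 6 genes kept their direction and their call in TAN against NN and in G-MDSC against NN, by the brightest probe, under every alternative run. Of 290 alternative values for single probes of G-MDSC minus NN, 17 lost the call, all of Ctsc probes 2 and 3. The probes called numbered 10073 for TAN minus NN, and 6557 with TAN 3 as the only TAN array, which is then assumed to vary like the other groups. For G-MDSC minus NN they numbered 5954, against 9615 with array weights and 3941 where the level of background was a block. For TAN minus G-MDSC they numbered 9598, against 5419 with that block and 5610 with TAN 3 alone.

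Between TAN and G-MDSC the calls of the weak differences moved. The number of members called was 3, and 5 with plain background subtraction or with each array scaled to its median. The Mpo difference of -0.78 was no longer called without background correction (-0.71), with all probes of the array, without moderation of variances or with only the 2 groups fitted (-0.78 in each), with array weights (-0.36), where the level of background was a block (-0.91), without TAN 3 and G-MDSC 1 (-0.44) or with TAN 3 alone (-0.86), and it ranged between -0.98 and -0.47 as single arrays were left out. Elane became called with plain subtraction (-1.44), median scaling (-0.77) or only the 2 groups (-0.64), and ranged between -0.81 and -0.44 as single arrays were left out, being called without TAN 3, G-MDSC 2, NN 4 or NN 7. Prtn3 became called with median scaling (-0.91), only the 2 groups (-0.56) or the level of background blocked (-1.27). That block compares TAN and G-MDSC only through the NN arrays. Ctsg became called with plain subtraction (-2.68). The cause was not tested.

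Relative to Serpinb1a, plain subtraction, added after the data were seen, turned the Ctsg shift of TAN against NN to -1.24 and lost the calls of Elane in TAN against NN (0.93) and of Ctsg in TAN against G-MDSC (1.96). As single arrays were left out, Elane in TAN against NN ranged between 0.88 and 1.14, and was not called without TAN 1, TAN 2 or TAN 4. TAN against G-MDSC then ranged between 2.16 and 2.54 for Mpo, 2.35 and 2.58 for Elane, 2.44 and 2.77 for Prtn3 and 2.57 and 2.82 for Ctsg, and no gene was called without any 1 of these 8 arrays, where 3 against 4 cannot pass the adjusted threshold.

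With the replicate number as a block, the pairing of which the data did not bear out (4 of 15 arrays correlated best with an array of their own number), the Mpo difference of TAN minus G-MDSC was -0.78 with an adjusted p of 0.0722, and no other brightest-probe call changed. No called difference of the limma fit reversed. The uncalled Mpo probe 3 difference of TAN minus G-MDSC (-0.22) changed sign with TAN 3 alone, which read 6.65 against a G-MDSC mean of 6.6. Readings below background limit the size of folds for Ctsg and Mpo probe 3 (3 of 4 TAN arrays), Mpo probe 2 (4 of 4) and, in NN, the Ctsc probes. Raising them to the lowest signal counted as above background, also added after the data were seen, lost only the call of Ctsc probe 3 in G-MDSC against NN (0.28, adjusted p = 0.0892).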
